A study of Mus musculus with 22 samples.

Results

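The genes described here are 10 CC and CXC chemokines, Ccl2, Ccl3, Ccl4, Ccl5, Ccl6, Ccl7, Ccl12, Cxcl1, Cxcl2 and Cxcl10, of 22485 genes measured. They were found by their gene symbol in the probe annotation, and all 10 had a value on all 11 arrays. They were covered by 19 of 43020 probes, 10 of them for Ccl2 and 1 for each of the others. Ccl2 is given by the brightest of its probes, averaged over all 22 samples.

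Chemokines are small secreted proteins that draw leukocytes along a gradient through G protein-coupled receptors. The CC and CXC classes are named for the spacing of their first cysteines. In mice, Ccl2, Ccl7 and Ccl12 are ligands of Ccr2, the receptor that brings monocytes into tissue. Ccl3, Ccl4 and Ccl5 attract macrophages and T cells, Ccl3 and Ccl5 among other routes through Ccr1. Ccl6 is a rodent CC chemokine of myeloid cells that acts through Ccr1. Cxcl1 and Cxcl2 bind Cxcr2, the main chemokine receptor of neutrophils, and Cxcl10 binds Cxcr3 of activated T and NK cells. Several of these genes are induced within a short time by NF-kappaB, Cxcl10 also by interferons. In brain, stimulated microglia are known to make most of them, and reactive astrocytes are known to make Ccl2, Cxcl1 and Cxcl10.

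Transcripts were measured in cells sorted from the cortex of APPswe/PS1dE9 mice (APP/PS1 below) and of their wild-type (WT) littermates, strain C57BL/6, aged 15 to 18 months. APP/PS1 mice carry a chimeric mouse and human APP transgene with the Swedish mutation and a human presenilin 1 transgene with a deleted exon, both driven by the mouse prion protein promoter, so that the transgenes are active in many brain cells from early in life. Microglia, 7 APP/PS1 and 7 WT samples, were sorted as CD11b-positive and CD45-positive cells, and astrocytes, 4 APP/PS1 and 4 WT samples, as GLT1-positive and CD11b-negative cells. All cortices were dissociated with papain at 37C, with myelin and O4-positive cells removed, before the sort. An APP/PS1 and a WT sample with the same replicate number shared each array in different dyes, and the values are log2 intensities as deposited. A level below is such a value of 1 sample, and a difference is APP/PS1 minus WT on the log2 scale, fitted within arrays unless stated otherwise. The RNA of each sample came from many cells, so a smaller number of cells of a type and less RNA per cell cannot be told apart.

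The sample medians lay between 6.24 and 6.26, and every chemokine value was more than 0.5 below 17.89, the top of the table. Microglia markers averaged 14.40 to 14.58 in APP/PS1 microglia, 14.89 to 15.36 in WT microglia, 8.49 to 10.56 in APP/PS1 astrocytes and 7.16 to 8.62 in WT astrocytes. Astrocyte markers averaged 12.57 to 14.25 in APP/PS1 astrocytes and 14.35 to 14.58 in WT astrocytes, against 6.67 to 7.90 in APP/PS1 microglia and 7.27 to 8.49 in WT microglia, so both sorts carried the markers of their label. The astrocyte sort also carried vascular markers. Endothelial markers averaged 13.26 to 14.04 in APP/PS1 astrocytes and 12.37 to 13.16 in WT astrocytes. Mural cell markers averaged 12.08 to 14.07 and 10.23 to 12.49. In APP/PS1 astrocyte replicates 1, 2 and 4 endothelial markers (13.49, 13.95 and 14.04) averaged above astrocyte markers (12.57, 13.25 and 13.19). In replicate 3 they averaged below them (13.26 and 14.25). WT microglia replicate 3 stood apart: its neutrophil markers averaged 13.83, with S100a9 at 17.72, against 6.63 to 8.43 in APP/PS1 microglia and 6.82 to 8.03 in the other WT microglia. The Y-linked gene Eif2s3y was high in the APP/PS1 sample and low in the WT sample on 3 arrays, those of microglia replicate 1 and of astrocyte replicates 1 and 3, and matched on the others. All astrocyte arrays lay on a slide of their own, so cell type and slide cannot be told apart, whereas both genotypes shared every array.

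**Figure D1:**
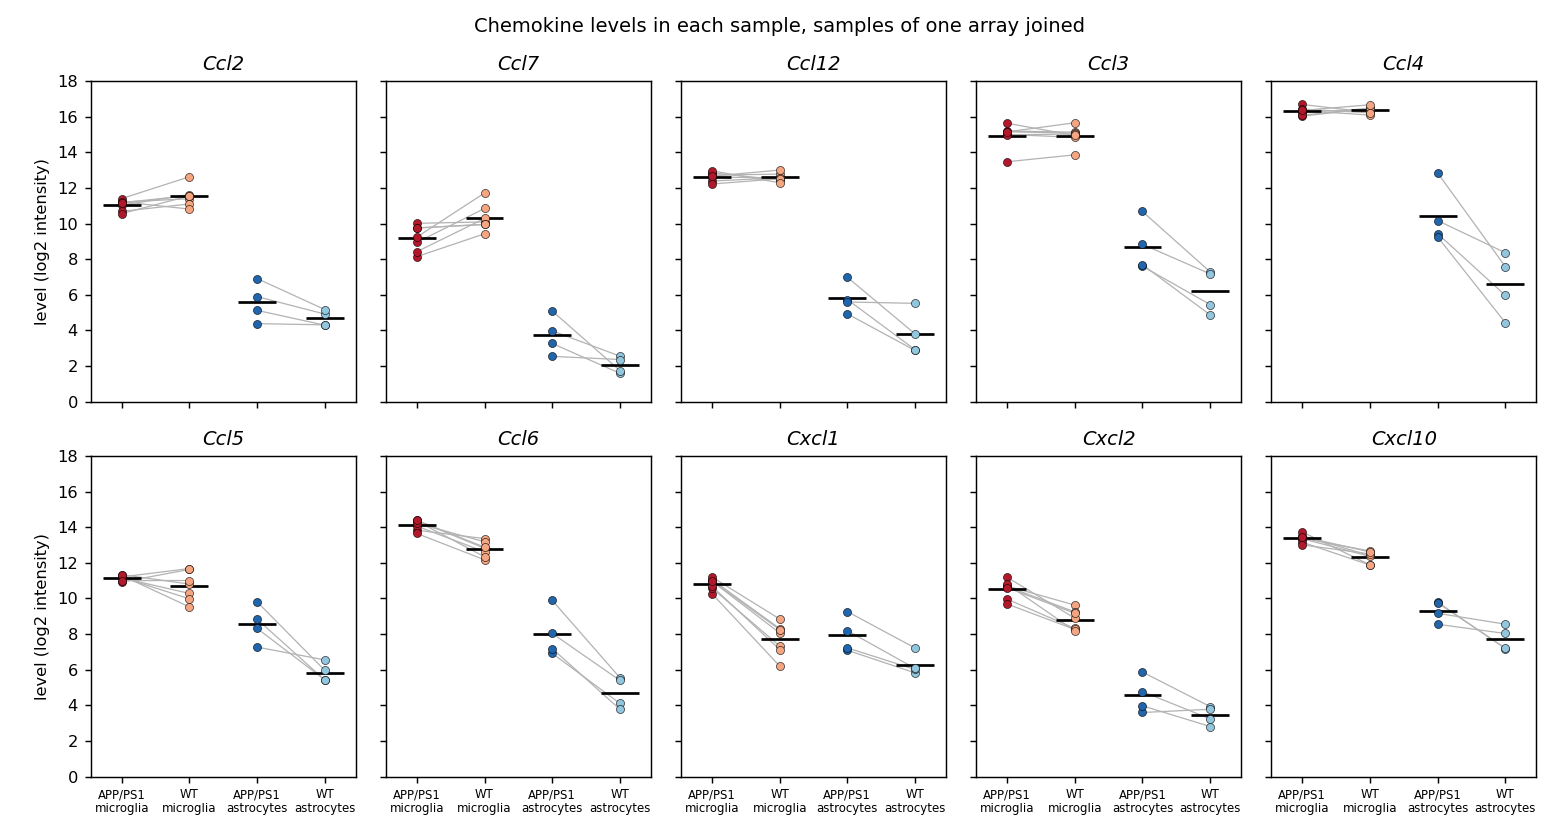
Levels of the 10 chemokine genes as log2 intensity (vertical axis) in each sample of APP/PS1 microglia, WT microglia, APP/PS1 astrocytes and WT astrocytes; points are samples, grey lines join the APP/PS1 and WT samples of an array, and black bars are group means (n = 7, 7, 4 and 4). Cxcl1, with 10.27 to 11.21 in APP/PS1 microglia against 6.21 to 8.85 in WT microglia, separates most clearly in microglia, whereas Ccl3 and Ccl4 separate in astrocytes and not in microglia.

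In microglia, 4 of the 10 chemokine genes were higher in APP/PS1 mice and none was lower in the limma fit: Cxcl1, Cxcl2, Ccl6 and Cxcl10. Ccl7, which was lower, was the only further gene with an unadjusted limma p under 0.05. Over all genes, 19.7% passed the same test at an adjusted p under 0.05, 8.27% as higher and 11.4% as lower. The median difference was 0.23 over the 10 chemokine genes, against -0.04 over all genes. The neutrophil attractants Cxcl1 and Cxcl2 and the T cell attractant Cxcl10 were thus all among the higher genes, whereas none of Ccl2, Ccl7, Ccl12, Ccl3, Ccl4 and Ccl5 passed the test.

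Cxcl1, a ligand of Cxcr2, ranged from 10.27 to 11.21 in APP/PS1 microglia with a median of 10.97, against 6.21 to 8.85 in WT microglia with a median of 8.06. The groups did not overlap, and the WT samples were the more spread out (SD 0.33 in APP/PS1 and 0.90 in WT microglia, n = 7 each). The difference was 3.12 ± 0.19 (SE), or 8.68-fold, with a limma adjusted p of 5.67e-06, and it was above 0 on 7 of 7 arrays. By slide it was 3.10 on the 4 arrays of slide 1 (adjusted p = 0.0317) and 3.19 on the 3 arrays of slide 2 (adjusted p = 0.0997, with limma on those arrays alone). Cxcl2, the other Cxcr2 ligand of the set, ranged from 9.69 to 11.19 in APP/PS1 microglia with a median of 10.68, against 8.18 to 9.63 in WT microglia with a median of 8.90. The lowest APP/PS1 sample lay just above the highest WT sample. The difference was 1.72 ± 0.25, or 3.30-fold (limma adjusted p = 0.00118), above 0 on 7 of 7 arrays, with 1.39 on slide 1 and 2.25 on slide 2. The adjusted p of Cxcl2 was 0.0317 on slide 1 and 0.116 on slide 2.

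Ccl6 ranged from 13.65 to 14.39 in APP/PS1 microglia with a median of 14.22, against 12.17 to 13.36 in WT microglia with a median of 12.82. The groups did not overlap. The difference was 1.32 ± 0.19, or 2.49-fold (limma adjusted p = 9.08e-04), above 0 on 7 of 7 arrays. On 1 slide at a time it was 1.35 and 1.29, and neither passed the test with so few arrays (adjusted p = 0.0599 on slide 1 and 0.107 on slide 2). Cxcl10 ranged from 13.01 to 13.74 in APP/PS1 microglia with a median of 13.38, against 11.88 to 12.67 in WT microglia with a median of 12.41. Its groups did not overlap either, and the samples of each genotype lay close together. The difference was 1.12 ± 0.20, or 2.17-fold (limma adjusted p = 0.00328), above 0 on 7 of 7 arrays, with 0.87 on slide 1 (adjusted p = 0.0665) and 1.42 on slide 2 (adjusted p = 0.107). Without microglia replicate 3 the same 4 genes passed, at 3.21 for Cxcl1, 1.75 for Cxcl2, 1.34 for Ccl6 and 1.05 for Cxcl10. Slide 2 alone gave 0 called genes at 3 arrays, although 5003 of 20721 genes, 5 of the 10 chemokine genes among them, had an unadjusted limma p under 0.05.

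The promoters of these 4 genes are shown because the genes were higher together in APP/PS1 microglia. They are RefSeq sequences of build GRCm38.p6, 250 bases before to 50 after the annotated start, which were found for 6 of the 10 members (Ccl3, Ccl6, Ccl12, Cxcl1, Cxcl2 and Cxcl10). Each is written 5′ to 3′ in the direction of the gene, and capitals mark matches on either strand to the NF-kappaB consensus and to GAAANNGAAA, the core of interferon response elements.
Cxcl1 (chr5:90890995-90891294, plus strand): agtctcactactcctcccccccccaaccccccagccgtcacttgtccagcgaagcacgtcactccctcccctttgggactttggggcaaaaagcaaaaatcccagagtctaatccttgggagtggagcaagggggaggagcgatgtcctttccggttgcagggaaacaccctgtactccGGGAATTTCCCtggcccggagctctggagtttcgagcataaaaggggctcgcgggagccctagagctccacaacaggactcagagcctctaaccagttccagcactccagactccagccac
Cxcl2 (chr5:90903649-90903948, plus strand): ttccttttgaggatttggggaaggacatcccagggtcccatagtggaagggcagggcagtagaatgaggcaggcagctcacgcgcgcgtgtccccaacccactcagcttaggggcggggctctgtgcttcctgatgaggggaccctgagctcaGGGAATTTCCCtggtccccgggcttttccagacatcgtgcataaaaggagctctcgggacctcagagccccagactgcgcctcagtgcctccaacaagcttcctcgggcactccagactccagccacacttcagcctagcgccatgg
Cxcl10 (chr5:92348840-92349139, minus strand): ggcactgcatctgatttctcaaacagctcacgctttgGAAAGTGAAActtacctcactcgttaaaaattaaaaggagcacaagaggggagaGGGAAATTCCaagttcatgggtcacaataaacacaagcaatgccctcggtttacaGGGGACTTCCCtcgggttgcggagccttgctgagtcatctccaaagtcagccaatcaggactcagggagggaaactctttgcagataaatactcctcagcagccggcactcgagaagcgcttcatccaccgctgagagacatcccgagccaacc
Ccl6 (chr11:83593038-83593337, minus strand): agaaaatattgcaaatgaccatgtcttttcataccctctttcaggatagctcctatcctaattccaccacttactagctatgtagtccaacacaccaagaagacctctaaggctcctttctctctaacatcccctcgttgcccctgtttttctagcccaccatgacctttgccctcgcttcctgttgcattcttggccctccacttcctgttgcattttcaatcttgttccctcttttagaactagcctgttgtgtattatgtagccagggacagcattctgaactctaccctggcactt
The promoters of Cxcl1 and Cxcl2, which are neighbouring genes on chromosome 5, held the same 10 letters GGGAATTTCC, at bases 180 to 189 in Cxcl1 and 154 to 163 in Cxcl2, beginning at -71 and -97 relative to the start. The reverse strand gave an overlapping match shifted by 1 base in both. The Cxcl10 promoter held GGGAAATTCC at bases 92 to 101, GGGGACTTCC at bases 147 to 156 with an overlapping match, and GAAAGTGAAA at bases 38 to 47. No match was found in the windows of Ccl6, Ccl3 and Ccl12. Of 32544 promoters of the same length, 8.49% held the NF-kappaB consensus, 3.45% held GAAANNGAAA and 0.0891% held GGGAATTTCC, on either strand. GGGAATTTCC is the word read in the Cxcl1 and Cxcl2 windows themselves, so its share is a description and tests nothing. These windows also share other stretches of letters. A match describes the letters of the window and shows no binding.

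None of the Ccr2 ligands passed the test in microglia, and the values of Ccl7 and Ccl2 lay below 0. Ccl7 ranged from 8.14 to 10.01 in APP/PS1 microglia with a median of 9.24, against 9.42 to 11.71 in WT microglia with a median of 10.09. The groups overlapped, although APP/PS1 was the lower sample on 7 of 7 arrays. The difference was -1.10 ± 0.38 (95% interval -1.95 to -0.24, limma adjusted p = 0.0750). It was uneven between slides: the arrays of slide 1 gave -1.90, -2.47, -1.28 and -1.86 and those of slide 2 gave -0.08, -0.20 and -0.20. Fitted alone, slide 1 gave -1.88 (adjusted p = 0.0317) and slide 2 gave -0.17 (adjusted p = 0.394), and the difference between slides was not tested. Ccl2 ranged from 10.56 to 11.40 in APP/PS1 microglia with a median of 11.17, against 10.81 to 12.63 in WT microglia with a median of 11.55. The groups overlapped and APP/PS1 was higher on 1 of 7 arrays, at -0.46 ± 0.21 (limma adjusted p = 0.166). Ccl2 was fitted at -0.81 on slide 1 (adjusted p = 0.0387) and 0.06 on slide 2 (adjusted p = 0.780). Its arrays gave -1.23 to -0.41 on slide 1 and -0.40 to 0.41 on slide 2, so that the nearest arrays almost met, and the difference between slides was not tested. All 10 Ccl2 probes gave values between -0.47 and -0.41, and 0 of the 10 passed.

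WT microglia replicate 3, the sample with high neutrophil markers, also had the highest Ccl2 and Ccl7 levels of all samples, 12.63 and 11.71. Without this array the difference was -0.36 for Ccl2 (adjusted p = 0.315) and -0.92 for Ccl7 (adjusted p = 0.162), and the part of the neutrophil genes in the result was not tested. Markers of perivascular macrophages and monocytes were also lower, 6 of 11, beside 11.4% of all genes called lower. Their log2 summed level was 13.27 to 13.74 in APP/PS1 microglia against 13.92 to 15.54 in WT microglia. None of them was at 0, which does not mark absence on this log2 scale. Their part in the Ccl2 and Ccl7 values was not tested. Ccl12, the third Ccr2 ligand, ranged from 12.22 to 12.96 in APP/PS1 microglia with a median of 12.66, against 12.29 or more in WT microglia with a median of 12.57 and a highest sample just above that of APP/PS1. The groups lay on top of each other, with a difference of 0.01 ± 0.31 (95% interval -0.68 to 0.71, adjusted p = 0.983).

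Ccl3, Ccl4 and Ccl5 overlapped between genotypes in microglia. Ccl3 ranged from 13.47 to 15.63 in APP/PS1 microglia with a median of 15.15, against 13.86 to 15.66 in WT microglia with a median of 15.03. Replicate 5 was the lowest sample in both genotypes, and the difference was 0.01 ± 0.20 (95% interval -0.44 to 0.46, adjusted p = 0.981). Ccl4 ranged from 16.03 to 16.68 in APP/PS1 microglia with a median of 16.34, against 16.09 to 16.67 in WT microglia with a median of 16.40. These values nearly coincided, at -0.09 ± 0.33 (95% interval -0.83 to 0.66, adjusted p = 0.898). Ccl5 ranged from 10.92 to 11.34 in APP/PS1 microglia with a median of 11.19, against 9.53 to 11.68 in WT microglia with a median of 10.81. The APP/PS1 samples lay within the range of the WT samples, which spread more widely (SD 0.15 in APP/PS1 and 0.82 in WT microglia). The difference was 0.44 ± 0.40 (95% interval -0.45 to 1.34, adjusted p = 0.504). Of 12 T and NK cell markers, which include cells known to make Ccl5, 1 (Cd247, 0.60, named after its value was seen) was higher and 0 were lower in APP/PS1 microglia. Among all genes 8.27% were called higher, and these markers had a median of 0.35. Their log2 summed level was 11.80 to 12.20 in APP/PS1 microglia and 11.58 to 12.43 in WT microglia. By array, Ccl5 was highest on replicates 6, 4 and 1 (1.77, 1.21 and 0.87), where the list had medians of 0.70, 0.98 and 0.37, and was lowest on replicates 2 and 3 (-0.72 and -0.47), where the list had -0.04 and -0.33. The part of these cells in the Ccl5 values was not tested.

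**Figure D2:**
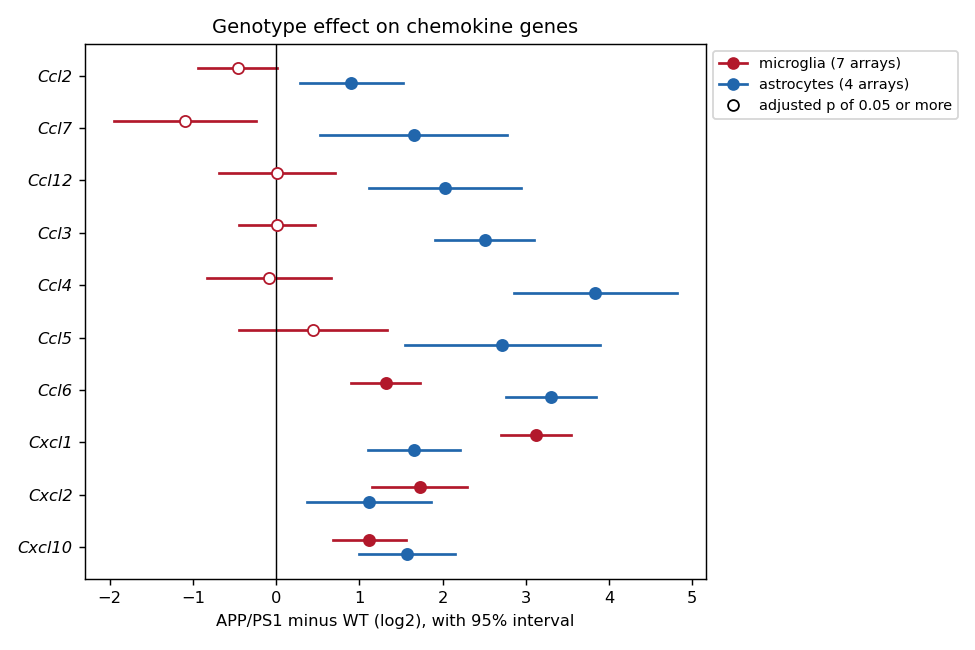
APP/PS1 minus WT difference of each chemokine gene on the log2 scale (horizontal axis) in microglia (red, 7 arrays) and astrocytes (blue, 4 arrays), from the limma fit; points are estimates, lines 95% intervals, and open points have an adjusted p of 0.05 or more. In astrocytes 10 of 10 points lie above 0 and pass, in microglia 4 of 10, and Cxcl1 is the gene whose microglia value (3.12) exceeds its astrocyte value (1.66) with a tested difference.

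In the astrocyte samples, all 10 chemokine genes were higher in APP/PS1 mice, by 0.91 to 3.84 on the log2 scale. Over all genes, 33.4% passed the test, 15.4% as higher and 18.0% as lower. The median difference was 1.85 over the 10 genes, against -0.07 over all genes. Markers of microglia were also higher in these samples, and these values are given with the chemokines below.

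Ccl4 had the widest difference of the 10. Its level in replicates 1 to 4 was 12.84, 9.44, 9.25 and 10.16 in APP/PS1 astrocytes, against 7.59, 5.97, 4.44 and 8.36 in WT astrocytes. The lowest APP/PS1 sample lay above the highest WT sample, and the difference was 3.84 ± 0.44, or 14.3-fold (limma adjusted p = 2.82e-04). Ccl3 levels were 10.68, 7.60, 7.69 and 8.83 in APP/PS1 astrocytes, against 7.28, 5.45, 4.87 and 7.17 in WT astrocytes. Replicate 1 was the highest sample in APP/PS1 astrocytes for both genes, and the groups of Ccl3 did not overlap. The Ccl3 difference was 2.51 ± 0.27, or 5.68-fold (adjusted p = 2.10e-04). Ccl5 levels were 8.32, 9.81, 7.27 and 8.84 in APP/PS1 astrocytes, against 5.43, 5.97, 6.55 and 5.42 in WT astrocytes. These groups did not overlap either, although the array of replicate 3 differed by 0.72 and the other 3 arrays by 2.89 to 3.84. The Ccl5 difference was 2.72 ± 0.52, or 6.57-fold (adjusted p = 0.00319). Of the 12 T and NK cell markers, 1 (Cd3d, 2.64, named after its value was seen) was higher and 0 were lower in APP/PS1 astrocytes. Among all genes 15.4% were called higher, and these markers had a median of 0.61. Their log2 summed level was 10.27 to 10.95 in APP/PS1 astrocytes and 10.04 to 10.45 in WT astrocytes. The median of this list by array was 0.29, 1.12, 0.05 and 0.41, highest on replicate 2 and lowest on replicate 3, as was Ccl5 (2.89, 3.84, 0.72 and 3.41), and its part in the Ccl5 difference was not tested.

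Ccl6 levels were 9.90, 6.92, 7.19 and 8.04 in APP/PS1 astrocytes, against 5.55, 4.11, 3.78 and 5.40 in WT astrocytes. The groups did not overlap, and the 4 arrays differed by 2.64 to 4.34. The difference was 3.30 ± 0.24, or 9.85-fold (adjusted p = 8.00e-05). Ccl6, with Cxcl1, Cxcl2 and Cxcl10, passed as higher in both cell types.

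The Ccr2 ligands were also higher, Ccl2 by the smallest amount of the 10 genes. Ccl2 levels were 5.90, 5.12, 4.38 and 6.91 in APP/PS1 astrocytes, against 4.92, 4.29, 4.31 and 5.17 in WT astrocytes. The groups overlapped, and the array of replicate 3 differed by 0.07. The difference was 0.91 ± 0.28, or 1.87-fold (adjusted p = 0.0299), and the 10 Ccl2 probes gave 0.62 to 1.45, of which 6 passed, all as higher. Ccl7 levels were 3.97, 2.54, 3.26 and 5.09 in APP/PS1 astrocytes, against 2.55, 2.36, 1.59 and 1.74 in WT astrocytes. The groups overlapped, and 2 of the 4 APP/PS1 samples and 4 of the 4 WT samples lay below the median level, 2.32 to 3.63 depending on the sample, of probes that were blank on some other array. The difference of 1.65 ± 0.50 (adjusted p = 0.0294) therefore rests on values at the dim end of the table. Ccl12 levels were 6.98, 4.93, 5.73 and 5.59 in APP/PS1 astrocytes, against 3.80, 2.87, 2.92 and 5.52 in WT astrocytes. The groups overlapped through WT replicate 4, whose array differed by 0.08, and 2 of the WT samples lay below that same dim level. The difference was 2.03 ± 0.41, or 4.09-fold (adjusted p = 0.00399).

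The CXC genes were also higher, with overlapping groups. Cxcl1 levels were 9.26, 7.09, 7.23 and 8.19 in APP/PS1 astrocytes, against 7.22, 5.82, 6.01 and 6.08 in WT astrocytes. The overlap came from replicate 1, the highest in both genotypes, and within arrays the difference was even, 1.22 to 2.12. It was fitted at 1.66 ± 0.25, or 3.16-fold (adjusted p = 8.24e-04). Cxcl2 levels were 5.87, 3.60, 3.98 and 4.77 in APP/PS1 astrocytes, against 3.93, 3.78, 2.81 and 3.24 in WT astrocytes. APP/PS1 was the higher sample on 3 of 4 arrays, replicate 2 being the exception at -0.18, and 2 of the WT samples were at the dim level. The difference was 1.11 ± 0.33, or 2.16-fold (adjusted p = 0.0273). Cxcl10 levels were 9.17, 8.55, 9.80 and 9.76 in APP/PS1 astrocytes, against 8.56, 8.03, 7.19 and 7.22 in WT astrocytes. Replicates 1 and 2 differed by 0.61 and 0.52 and replicates 3 and 4 by 2.61 and 2.54, and the lowest APP/PS1 sample lay just under the highest WT sample. The difference was 1.57 ± 0.26, or 2.97-fold (adjusted p = 0.00137).

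Leaving out arrays changed how many of the 10 passed in astrocytes. With the arrays of replicates 2 and 4, whose samples matched in Eif2s3y, as the only astrocyte arrays, 7 passed, and Ccl7, Ccl12 and Cxcl2 did not (adjusted p = 0.144, 0.146 and 0.275). Without replicate 1, the array with the widest difference in microglia markers, 7 passed, and Ccl2, Ccl7 and Cxcl2 did not (adjusted p = 0.111, 0.0897 and 0.141). Ccl3, Ccl4, Ccl5, Ccl6, Cxcl1 and Cxcl10 passed in every one of the 13 alternative fits, the highest adjusted p among them being 0.0498, for Ccl5.

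Most microglia markers were also higher in the APP/PS1 astrocyte samples. Of 19 measured, 15 were higher in APP/PS1 astrocytes, 3 were lower (Siglech, Itgam and Sall1) and P2ry12 did not pass (0.04 ± 0.25), with a median of 1.76. Among all genes, 15.4% were called higher and 18.0% lower. C1qa was higher by 2.32, Cx3cr1 by 2.04, Csf1r by 1.61 and Tmem119 by 1.03. The log2 summed level of the marker list was 14.45 to 15.78 in APP/PS1 astrocytes and 14.91 to 15.86 in WT astrocytes. Its main contributors there were Siglech and Itgam, at means of 13.64 and 12.90 in APP/PS1 astrocytes and 14.41 and 13.50 in WT astrocytes. Their means in microglia were close to these, at 14.49 and 13.45 in APP/PS1 and 15.10 and 13.95 in WT samples. These 2 genes thus separated the cell types little. Without these 2 genes, a setting chosen after seeing the data, the sum was 12.60 to 15.35 in APP/PS1 astrocytes and 11.07 to 12.60 in WT astrocytes, against 19.06 to 19.28 in APP/PS1 microglia and 19.60 to 19.94 in WT microglia. No marker was at 0, a value that does not mark absence on this log2 scale.

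The chemokines and the markers were compared array by array. The marker list held 19 genes, 18 on replicate 2, and still included Siglech and Itgam. The median marker difference was 3.20, 1.64, 1.46 and 0.25 in astrocyte replicates 1 to 4, whereas the median chemokine difference was 2.47, 1.66, 2.14 and 1.96. The marker difference was widest in replicate 1 and narrowest in replicate 4, and the chemokine median did not keep this order. On the 4 arrays, 3, 5, 6 and 9 of the 10 chemokine genes lay above the marker median. Ccl4, Ccl6 and Ccl3 lay above it on 4 of 4 arrays, by a mean of 2.20, 1.66 and 0.87. Within microglia these 3 genes differed by -0.09, 1.32 and 0.01 between genotypes, where the markers had a median of -0.59. Ccl5, Ccl7, Ccl12 and Cxcl10 lay above it on 2 arrays each, and Ccl2, Cxcl1 and Cxcl2 on 1, replicate 4. On that array, where the markers differed by 0.25, the chemokine genes other than Ccl12 differed by 1.53 to 3.41. Endothelial markers and genes of the interferon route had their highest medians on that same array: by replicate, 0.28, 1.47, 0.81 and 1.65 for endothelial markers and 0.14, 0.74, 0.89 and 1.53 for the interferon route. The share of the chemokine difference that comes with RNA of microglia was not tested.

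**Figure D3:**
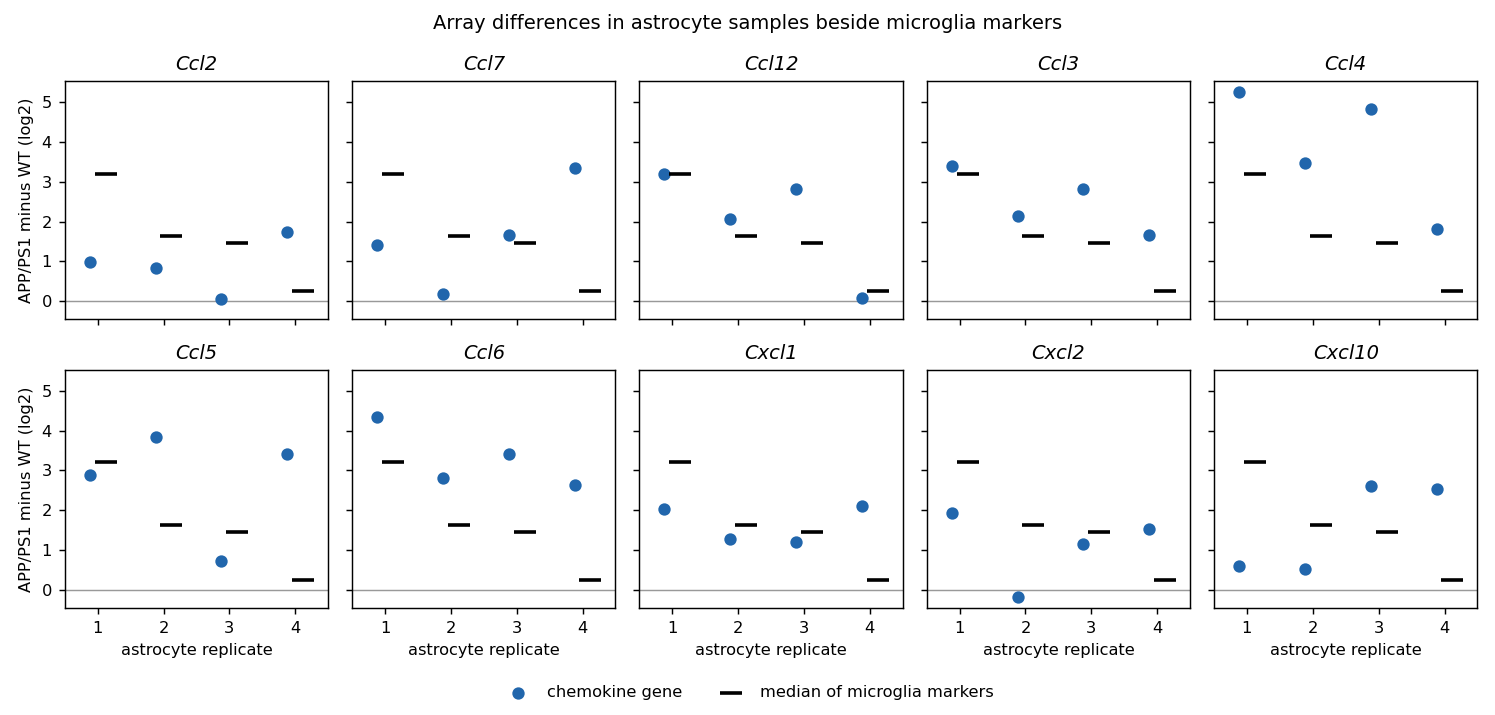
APP/PS1 minus WT difference (log2, vertical axis) of each chemokine gene (blue points) on the 4 astrocyte arrays (horizontal axis, replicate number). Black bars are the median difference of 19 microglia markers (18 on replicate 2) on the same array (3.20, 1.64, 1.46 and 0.25). Ccl3, Ccl4 and Ccl6 lie above the bar on 4 of 4 arrays, and on replicate 4 the chemokine genes other than Ccl12 do.

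Other lists also moved in the astrocyte samples. For comparison, 15.4% of all genes were called higher and 18.0% lower in astrocytes, and 8.27% and 11.4% in microglia. Of 21 immediate early and stress genes known to be induced by tissue dissociation, 18 were higher and 1 was lower, with a median of 1.33, and Rgs1 (2.61 ± 0.26), Fosb (1.47 ± 0.14), Socs3 (1.33 ± 0.13) and Btg2 (1.17 ± 0.12) had the smallest adjusted p. The median of this list by array was 1.45, 1.47, 1.26 and 0.96, and its level averaged 10.67 to 12.16 in APP/PS1 astrocytes and 9.40 to 10.69 in WT astrocytes. In microglia 5 of the 21 were higher and 7 lower, with a median of -0.23, and 6 to 9 of them passed when 1 microglia replicate was left out, 7 of them without replicate 3 and 6 without replicate 4 or 6. Mural cell markers were higher for 7 of 9 genes (median 2.00), endothelial markers for 10 of 11 (median 1.10) and astrocyte markers were lower for 14 of 15 (median -1.33). Mural markers summed to 16.64 to 18.51 in APP/PS1 astrocytes and 14.31 to 17.01 in WT astrocytes on the log2 scale. Endothelial markers summed to 18.19 to 18.88 in APP/PS1 astrocytes and 17.07 to 18.11 in WT astrocytes, and astrocyte markers to 16.96 to 18.87 in APP/PS1 astrocytes and 19.15 to 19.32 in WT astrocytes. No gene of these lists was at 0, which does not mark absence on this log2 scale. The part of any of these in the chemokine differences was not tested.

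The difference between the cell types was tested as the astrocyte effect minus the microglia effect. It passed for 8 of the 10 genes, 7 with the greater effect in astrocytes and 1, Cxcl1, with the greater effect in microglia. Over all genes, 26.6% passed, 13.4% as higher and 13.2% as lower. Of the 19 microglia markers, 15 passed as higher and 1 as lower in this same test. Their median was 2.42, beside 2.00 for the 10 chemokine genes. Of the 21 dissociation stress genes, 18 passed as higher and 0 as lower (median 1.29). The part of either list in the chemokine values was not tested. Ccl4 differed most, by 3.92 ± 0.55 (limma adjusted p = 8.58e-04). Ccl7 differed by 2.75 ± 0.63 (adjusted p = 0.0104), with opposite signs in the cell types although the microglia effect itself did not pass. Ccl3 differed by 2.49 (adjusted p = 6.73e-04), Ccl5 by 2.27 (0.0295), Ccl12 by 2.02 (0.0167), Ccl6 by 1.98 (0.00133) and Ccl2 by 1.37 (0.0164). For Cxcl1 the astrocyte effect was smaller by 1.46 ± 0.31 (adjusted p = 0.00718). Cxcl2 and Cxcl10 did not pass, at -0.61 (95% interval -1.55 to 0.32, adjusted p = 0.324) and 0.45 (95% interval -0.27 to 1.18, adjusted p = 0.350). Ccl5 did not pass without microglia replicate 2, 3 or 7 or without astrocyte replicate 1, 2 or 4 (adjusted p = 0.0508 to 0.110). Ccl2 did not pass without astrocyte replicate 1, 2 or 4 (adjusted p = 0.0505 to 0.0563). Ccl12 did not pass without astrocyte replicate 1 (adjusted p = 0.0635) or on the arrays matched in Eif2s3y (0.200), and Ccl7 did not on the matched arrays (0.0519). Ccl3, Ccl4, Ccl6 and Cxcl1 passed in each of these settings. Since all astrocyte arrays lay on their own slide, cell type and slide cannot be told apart in these values.

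The level of each gene was compared between the cell types within a genotype, with array as a random block. All 10 chemokine genes were lower in astrocytes than in microglia in both genotypes, by the limma test. Over all genes, 52.0% passed between the APP/PS1 groups, 34.5% as higher and 17.5% as lower in astrocytes, and 51.5% between the WT groups, 34.1% as higher and 17.4% as lower. The median gene was higher by 0.33 and 0.34 in astrocytes. The microglia markers had a median difference, astrocytes minus microglia, of -6.11 in APP/PS1 and -8.53 in WT samples, and their values are set beside those of the chemokines.

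The CC genes other than Ccl5 had gaps of -6.81 to -5.47 in APP/PS1 and -9.79 to -6.84 in WT samples, beside marker gaps of -7.04 to -0.55 in APP/PS1 and -9.47 to -0.44 in WT samples. The Ccl4 difference, astrocytes minus microglia, was -5.87 in APP/PS1 and -9.79 in WT samples, and 12 and 0 of the 19 markers had a wider gap. Ccl12 differed by -6.81 in APP/PS1 and -8.83 in WT samples, with 1 and 7 markers wider, and Ccl3 by -6.24 and -8.74, with 7 and 8 wider. Ccl6 differed by -6.10 and -8.08, with 10 and 12 wider. Ccl7 differed by -5.48 and -8.24, with 13 and 12 wider, and Ccl2 by -5.47 and -6.84, with 13 and 15 wider.

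Cxcl1, Ccl5 and Cxcl10 had narrower gaps than the other 7 genes in both genotypes. The Cxcl1 difference was -2.89 ± 0.43 in APP/PS1 samples and -1.44 ± 0.43 in WT samples (limma adjusted p = 0.0085 in WT), and 17 of 19 markers had a wider gap in both genotypes, the exceptions being Siglech and Itgam. It was the gene whose WT groups overlapped, at 5.82 to 7.22 in WT astrocytes and 6.21 to 8.85 in WT microglia. The order of its levels was APP/PS1 microglia, then APP/PS1 astrocytes and WT microglia with overlapping ranges, then WT astrocytes. Ccl5 differed by -2.59 in APP/PS1 and -4.86 in WT samples, with 17 and 16 of the 19 markers wider. Cxcl10 differed by -4.10 and -4.55, with 16 of 19 markers wider in both, and Cxcl2 by -5.98 and -5.36, with 11 and 16 wider. The slide limit given above holds here too, and with slide as a random block the WT gap of Cxcl1 did not pass (-1.45, adjusted p = 0.341).

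**Figure D4:**
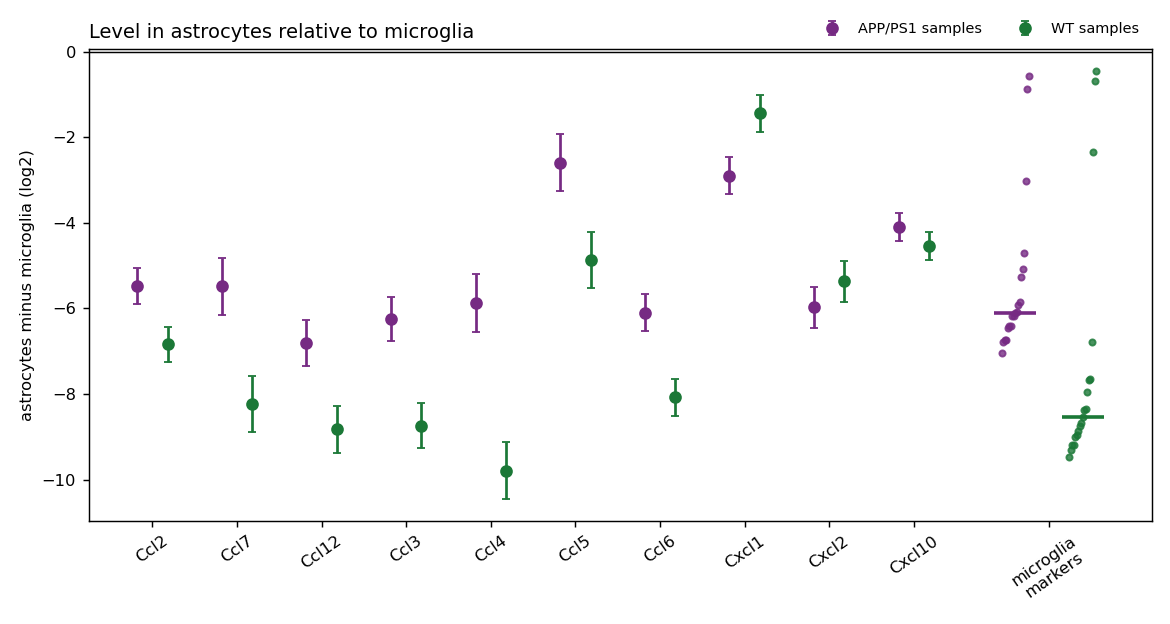
Level in astrocytes minus level in microglia on the log2 scale (vertical axis) for each chemokine gene, in APP/PS1 samples (purple) and WT samples (green), with SE as error bars; small points at the right are the 19 microglia markers and bars their medians (-6.11 and -8.53). Cxcl1 lies nearest to 0 in WT samples (-1.44) and Ccl4 farthest from it (-9.79).

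The remaining chemokine genes moved in both directions. Of 27 other chemokines, 3 were higher and 5 lower in APP/PS1 microglia (median -0.17), and 2 were higher and 3 lower in APP/PS1 astrocytes (median 0.13), beside 19.7% and 33.4% of all genes called in either direction. Without astrocyte replicate 3, 4 were higher and 4 lower in astrocytes. In microglia, Cxcl14 was higher by 1.46 ± 0.15 (limma adjusted p = 1.51e-04), and so was Cxcl9, another interferon-induced Cxcr3 ligand, by 1.41 ± 0.23 (adjusted p = 0.00199). Ccl24, an eosinophil attractant, fell by 1.24 ± 0.22 (adjusted p = 0.00314), and Ccl8, which neighbours Ccl12 on chromosome 11, was also lower, at -1.10 ± 0.27 (adjusted p = 0.0190). Ccl27a was higher by 0.39. In astrocytes Cxcl14 had the opposite sign, at -1.72 ± 0.20 (adjusted p = 2.88e-04), Ccl21a was at -0.80 and Cxcl11 at -0.57, and the platelet and macrophage chemokine Pf4 was higher by 1.23 ± 0.27 (adjusted p = 0.00663). Ccl8 was named after its value was seen.

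Of 23 chemokine receptor genes measured, 2 were higher and 1 lower in APP/PS1 microglia, and 5 were higher and 1 lower in APP/PS1 astrocytes, beside 19.7% and 33.4% of all genes called in either direction. In microglia 1 receptor gene passed without replicate 1, 3, 5 or 7, and 5 passed without replicate 2. Ccr2 differed by -0.26 in microglia and 0.28 in astrocytes (adjusted p = 0.634 and 0.650), Ccr1 by -0.86 and 0.05 (0.359 and 0.968), and Cxcr2 by -0.27 and 0.10 (0.760 and 0.924). Ackr1, a scavenging receptor of both classes, differed by 0.06 and 0.26 (0.768 and 0.195). Cxcr3, the receptor of Cxcl10, did not pass in microglia (-0.05, adjusted p = 0.919) and was higher by 1.33 ± 0.34 in astrocytes (adjusted p = 0.0127). Among the other receptors, Cxcr4 was higher by 2.23 ± 0.30 in APP/PS1 microglia (adjusted p = 6.50e-04) and the microglial receptor Cx3cr1 was lower, at -1.25 ± 0.33 (adjusted p = 0.0250). Ccr8 was higher by 0.30 in microglia. In astrocytes Ackr3 (1.73 ± 0.29), Ccrl2 (1.56 ± 0.18) and Cx3cr1 (2.04 ± 0.43) were higher and Ccr8 was lower, at -0.52.

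In the lists of NF-kappaB signalling and of the interferon route, which includes interferon-stimulated genes, more genes were higher than lower in both cell types. Over all genes, 8.27% (microglia) and 15.4% (astrocytes) were called higher. Of 18 genes of NF-kappaB signalling and its inducers, 8 were higher and 1 lower in APP/PS1 microglia (median 0.34), and 12 were higher and 2 lower in APP/PS1 astrocytes (median 0.73). The cytokine Il1b was higher by 2.49 ± 0.29 in microglia and 3.93 ± 0.38 in astrocytes, and the receptor Tlr2 by 1.34 ± 0.17 and 2.05 ± 0.22. The interleukin 1 receptor Il1r1 (1.89 ± 0.14) and the subunit Nfkb2 (0.72 ± 0.10) were higher in microglia, and Nfkbiz (1.42 ± 0.20) and the adaptor Myd88 (0.97 ± 0.10) in astrocytes. Of these 18 genes, 15 were lower and 1 was higher in WT astrocytes than in WT microglia (median -2.60). Over all genes, 17.4% were lower and 34.1% higher in that comparison. Microglia markers were higher by a median of 1.76 in the same APP/PS1 astrocyte samples, and their part in these values was not tested. Of 19 genes of the interferon route, 11 were higher and 1, the receptor Ifngr1 (-0.77), lower in microglia (median 0.62). The interferon-stimulated genes Ifit2, Rsad2 and Usp18 were higher there by 1.48, 1.41 and 1.40. In astrocytes 14 of the 19 were higher and 1 lower (median 0.78), among them Irf7 (1.56), Isg15 (1.49), Ifit2 (1.41) and Irf1 (1.22).

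Over the 11 within-array differences, 7 of microglia and 4 of astrocytes, the genes most like each member were found among 16300 genes by Pearson's r. The 11 points share the step between the cell types, so r is given as a description. Ccl4 was most like Cd300c2, the cytokine Tnf and Ebi3 (r = 0.99, 0.99 and 0.98). Ccl12 was most like Tnf (r = 0.97), Cebpb and Cd300c2 (0.96 for both), and Ccl3 like Plxnb2, Dusp2 and Irf8 (0.97 for each). Tnf differed by 0.01 in microglia and 2.61 in astrocytes, the same division as Ccl3, Ccl4 and Ccl12. Ccl5 was most like Csta2 (0.97), Cxcr3 (0.96) and Ripk3 (0.93). Ccl2 was most like Kctd20, Rcc2 and Batf (0.94 to 0.95), Ccl7 like Dnah2, Irf4 and Zfp251 (0.94 to 0.96), and Ccl6 like Tnfaip8l2, Phf24 and Atp8a2 (0.96 to 0.97). Cxcl1 was most like Taf6l, Cdkn2c and Asl (0.96, 0.96 and 0.95), Cxcl2 like Ccr7, Mfsd4a and Tmem95 (0.92, 0.91 and 0.89) and Cxcl10 like Gm3693, Tti1 and Pml (0.93, 0.91 and 0.91).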

How the data were processed

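The deposited table holds 1 column of log2 intensity per sample, 22 columns from 11 two-colour Agilent arrays on 3 slides. The authors named limma in the submitters' processing notes, with no version. How background was corrected and values normalized is not given in the sources used here, and the number of arrays limits the precision. Part of the 43020 probes was blank: microglia arrays held 32045 to 40771 values and astrocyte arrays 42427 to 42869. A single gene was named by 33026 probes, several genes by 0 and no gene by 9994, which gave 22485 genes. The gene symbols come from the platform annotation, which can be old.

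Effects were fitted with limma 3.58.1 and statmod 1.5.0 in R 4.3.3, in 1 model of both cell types that held a fixed term per array, a dye term and the genotype effect within each cell type. Tests were two-sided, adjusted by Benjamini-Hochberg over all genes, with a threshold of 0.05. For levels between cell types the model held the 4 group means and the dye, and array was a random block. APP/PS1 was in Cy5 on 3 microglia and 2 astrocyte arrays and in Cy3 on 4 and 2. The samples are biological replicates per the design text. The pairing comes from the labels, which put same-numbered samples on an array. As a check, deviations from the group means gave Pearson's r over genes of 0.47 in the median (0.37 to 0.63) within microglia arrays and 0.23 (0.00 to 0.50) within astrocyte arrays. The fits were tested on simulated data for microglia, astrocytes, their difference and the WT level gap. A change of 1 on the log2 scale was recovered for 86, 77, 65 and 9% of changed genes, in that order. A change of 2 was recovered for 98, 95, 92 and 81%. False calls made up 8.46, 3.91, 5.42 and 2.17% of the calls. Tables were made with pandas 2.3.3 and numpy 2.4.6 in Python 3.11.15, and figures with matplotlib 3.10.9.

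The members and all gene lists were chosen with earlier results of these data known. Named genes were the 10 members, the receptors Ccr1, Ccr2, Cxcr2, Cxcr3 and Ackr1, and the 3 genes most like each member. Up to 4 genes of each of 5 pathway lists with the smallest adjusted p in each cell type were also named, and the microglia markers Tmem119, P2ry12, Cx3cr1, C1qa and Csf1r. The plan held the 2 brightest genes of each of 9 marker lists, of which Csf1r, Siglech and S100a9 are named here. The marker genes Itgam, Sall1, Cd247 and Cd3d were named outside these rules. Of 232 listed genes, 9 were not analysed here. Alternatives varied the block, the dye term, normalization, probe choice, the gene filter, slide, arrays matched in Eif2s3y and each replicate.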

Additional observations from a re-analysis of the deposited data

Results flagged for a closer look

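The Ccl3 level of APP/PS1 microglia replicate 5, 13.47, lay far below the other 6 samples of its group. The gap test was run on 60 groups, and chance flags about 1 in 20 of them. The WT sample on the same array, at 13.86, was the lowest of its group too, and no other member had such a sample.

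The genotype effect differed between astrocytes and microglia for 8 genes by the limma interaction test, given as astrocyte effect minus microglia effect. It was greater in astrocytes for Ccl4 (3.92), Ccl7 (2.75), Ccl3 (2.49), Ccl5 (2.27), Ccl12 (2.02), Ccl6 (1.98) and Ccl2 (1.37), and greater in microglia for Cxcl1 (-1.46). Beside these values, microglia markers differed by a median of 1.76 in astrocytes and -0.59 in microglia, and dissociation stress genes by 1.33 and -0.23. Their part in the differences was not tested.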

How the results depend on the processing

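Array is the block of the reported fits, which pairs the same-numbered samples. Without this block, 4 and not 8 members had a different effect between cell types (Ccl2, Ccl3, Ccl6 and Cxcl1 no longer passed), 8 of 10 passed in astrocytes and 4 in microglia. Over all genes, 1184, 2447 and 1491 passed without it in microglia, astrocytes and the difference, against 4403, 7514 and 5952 with it. Slide 2 alone (3 arrays) gave 0 members and 0 of all genes by limma (5 and 5003 at an unadjusted p under 0.05), and slide 1 alone gave 4 members, with Ccl2 and Ccl7 lower in place of Ccl6 and Cxcl10, and 972 genes. Astrocyte arrays fitted alone gave 6 members and 2819 genes. Arrays matched in Eif2s3y gave 4457 genes in astrocytes and 3865 for the difference, and slide as a random block 7166 against 11543 for the WT level gap. Leaving out each replicate in turn gave 4 to 5 members in microglia, 7 to 9 in astrocytes and 5 to 8 for the difference, the lowest without astrocyte replicate 1.

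The sign turned only for microglia effects that did not pass: Ccl2 on slide 2 (0.056), Ccl3 on slide 1 (-0.049), on matched arrays (-0.0038) and without single replicates (-0.13 to 0.092), Ccl4 on slide 2 (0.086) and without single replicates (-0.20 to 0.0057), and Ccl12 on slide 1 (-0.13), on matched arrays (-0.028) and without single replicates (-0.16 to 0.096). Ccl7 passed as lower in microglia with array as a random block, with genes above the median or measured on all arrays, on slide 1 and without replicate 1 (adjusted p = 0.0094 to 0.0485). The cause of these changes was not tested, and the subsets hold fewer arrays. No value in astrocytes, in the difference or in the level gap changed sign in any alternative. Intensities near the dim level limit Ccl7, Ccl12 and Cxcl2 in astrocytes.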
